A study of Mus musculus with 28 samples.

Results

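Messenger RNA bound to tagged ribosomes of hypothalamic leptin receptor cells was compared between 10 h and 3 h after a leptin injection in wild-type mice. The groups compared were set by the sample labels, although earlier results of these data were known when the comparison was chosen. It holds 12 of the 28 libraries of the series, which are 3 bead libraries labelled 10 h leptin, 3 bead libraries labelled 3 h leptin, and the depleted libraries of the same 6 lysates. All mice carried the LepRb-eGFP-L10a reporter, which places an eGFP tag on the ribosomal protein L10a of cells expressing LepRb, the long form of the leptin receptor. Males and females 10 to 13 weeks old lost their food at lights-on and were injected intraperitoneally with metreleptin, a recombinant leptin, at 5 mg per kg. Hypothalami were taken 3 or 10 h later, tagged ribosomes and the RNA on them were captured with a GFP antibody (beads), and the rest of each lysate is the depleted fraction. Vehicle-injected wild-type reporter mice, fasted in the same way, gave 4 lysates at 3 h and 1 lysate at 10 h and are used here as background. The remaining lysates of the series came from ob/ob mice at 10 h, 2 with vehicle and 1 with leptin, sequenced in a separate run. They enter no comparison, only the gene filter, scaling and spread estimate of the fits of all libraries. The reporter marks every kind of LepRb cell at once, so a bead library averages over neurons with opposite roles. The sources used here do not say whether a lysate is 1 mouse or a pool. Each 10 h leptin lysate held transcripts of both sexes, as given below, and so RNA of more than 1 mouse. Each 3 h leptin lysate held those of 1 sex, so the number of mice may differ between the groups. P-values thus measure the spread between these samples, which may be technical in part.

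Leptin is the hormone with which fat tissue reports its energy stores to the brain. It binds LepRb on hypothalamic neurons, the receptor activates the kinase JAK2, and JAK2 phosphorylates the transcription factor STAT3, which enters the nucleus and switches on target genes. Socs3 is among these targets, and its product blocks the receptor complex in a feedback loop. LepRb neurons of the arcuate nucleus include cells that make the hunger peptides Agrp and Npy and cells that make Pomc, the precursor of a satiety peptide.

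The DNA before the start site is shown first for 4 of the genes described below, 3 that were high at 3 h and 1 that was highest at 10 h. Arid5a (chr1:36307733-36324029, plus strand) encodes an RNA-binding protein that stabilises transcripts of inflammation. Etv6 (chr6:134035700-134270158, plus strand) encodes an ETS-family repressor, Socs3 (chr11:117966079-117970047, minus strand) the feedback inhibitor, and Timp1 (chrX:20870166-20874735, plus strand) a secreted inhibitor of metalloproteinases. All 4 are protein-coding genes in the GENCODE annotation of GRCm38. The windows, from RefSeq on GRCm38.p6, run 5′ to 3′, and those of Arid5a, Etv6 and Timp1 end at the base before the RefSeq start site. They are chr1:36307483-36307732, plus strand, for Arid5a, chr6:134035450-134035699, plus strand, for Etv6, chr11:117969452-117969616, minus strand, for Socs3, and chrX:20869916-20870165, plus strand, for Timp1. The Socs3 window is cut to the 165 bases that overlap no annotated exon and lacks the bases nearest the start site, from which positions are counted, and the Timp1 window lies within the Syn1 gene. Capitals mark a match to the STAT motif TTCNNNGAA.
Arid5a: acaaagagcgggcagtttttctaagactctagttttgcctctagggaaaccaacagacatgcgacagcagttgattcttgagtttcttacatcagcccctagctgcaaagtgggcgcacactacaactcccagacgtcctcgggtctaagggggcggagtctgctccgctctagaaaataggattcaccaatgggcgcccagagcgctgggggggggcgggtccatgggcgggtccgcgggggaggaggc
Etv6: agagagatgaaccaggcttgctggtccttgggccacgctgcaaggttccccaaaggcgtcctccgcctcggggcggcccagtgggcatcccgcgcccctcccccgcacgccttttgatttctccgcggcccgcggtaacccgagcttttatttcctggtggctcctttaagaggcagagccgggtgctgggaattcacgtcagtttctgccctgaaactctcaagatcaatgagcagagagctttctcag
Socs3: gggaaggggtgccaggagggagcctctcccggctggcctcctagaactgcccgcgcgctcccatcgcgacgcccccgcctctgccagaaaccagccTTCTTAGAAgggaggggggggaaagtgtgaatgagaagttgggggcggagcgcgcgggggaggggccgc
Timp1: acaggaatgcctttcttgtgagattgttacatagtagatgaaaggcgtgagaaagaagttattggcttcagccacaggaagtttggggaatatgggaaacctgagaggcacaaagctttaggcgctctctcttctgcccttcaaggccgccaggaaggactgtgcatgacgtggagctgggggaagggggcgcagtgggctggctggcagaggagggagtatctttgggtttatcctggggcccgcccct
The Socs3 match, TTCTTAGAA, lay at bases -154 to -146 from the start site, and the windows of Arid5a, Etv6 and Timp1 held none of the motifs searched. These were TTCNNNGAA, the AP-1 motif TGANTCA, the CRE motif TGACGTCA and the E-box CACGTG, on both strands. Of 32851 RefSeq mouse promoters, 7.02% held TTCNNNGAA in the 250 bases before the start site, 6.75% TGANTCA, 1.55% TGACGTCA and 6.02% CACGTG. A match is a string of letters and not a measured binding site.

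The 12 libraries held 23567997 to 42267040 counts each, and levels are given below as CPM, counts-per-million values of each library's total count times its TMM factor, the scaling used in the tests. All 3 h wild-type libraries were sequenced in 1 run and all 10 h wild-type libraries in another. Hours after leptin, length of the fast, time of day and sequencing run changed together and cannot be told apart. Lepr, the receptor gene, was at 10.2, 6.13 and 8.80 CPM in the 3 h beads and 8.68, 9.99 and 11.7 CPM in the 10 h beads, against 1.59 to 2.26 and 1.92 to 2.42 CPM in the depleted lysates, so every pulldown was enriched for it. Counts are per gene and do not separate the receptor's long and short forms. Lysate f2 of the 3 h group stood apart through pituitary RNA, with 0.348, 507 and 0.274 CPM of Gh (growth hormone) and 0.348, 709 and 0.479 CPM of Prl (prolactin) in the beads of lysates m24, f2 and f4. Lysate m24 held almost no Xist and lysates f2 and f4 almost no Ddx3y, a Y-linked gene, whereas every 10 h lysate held both (9.54, 15.2 and 20.2 CPM of Xist and 45.1, 34.9 and 38.01 CPM of Ddx3y in beads). Sex therefore differed between the groups as well and cannot be told apart from time for any gene that depends on it.

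Inducible genes that leptin had raised at 3 h were lower in the beads at 10 h. Arid5a fell 3.93-fold, to near the level of 3 h vehicle mice. It was the only gene of 18212 tested to pass the threshold in the fit of all bead libraries. Etv6, Fosl2 and Atf3 were lower in all 3 lysates of 10 h. Timp1 lay the other way and was highest at 10 h, and Irf9, Serpina3n and Stat3 were not lower at 10 h. Transcripts of glia and vessels and nuclear noncoding RNAs were lower in the 10 h beads than in the 3 h beads as well, and several neuropeptides of LepRb neurons were higher without passing the test.

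A pair of fits is given for each comparison. The primary fit uses all 14 bead libraries of the series, those of ob/ob mice included. Its 6 groups share 1 estimate of the spread with 8 residual degrees of freedom. The other uses the 6 wild-type leptin libraries alone, with 4 residual degrees of freedom. In edgeR's quasi-likelihood test with Benjamini-Hochberg adjustment at 0.05, the first called 1 of 18212 genes (0.00549%), and 3059 genes (16.8%) had an unadjusted p under 0.05, where 911 would be expected with no difference. The second called 247 of 17071 genes (1.45%), of which 23 rose (0.135%) and 224 fell (1.31%). That count leaned on each lysate. It was 750 without m24, 75 without f2, 23 without f4, and 44, 88 and 103 without 10 h lysates 1, 2 and 3. With the mean of glial markers as a covariate it was 8. That mean, in log2 CPM, was 3.80 to 4.50 in the 3 h leptin beads and 3.33 to 3.62 in the 10 h leptin beads. The covariate thus separated the leptin groups, and values given with it cannot tell glial content from time. Below, "the fit of all bead libraries" and "the leptin libraries alone" name the pair, and every log2 fold change is 10 h over 3 h.

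Arid5a was at 37.03, 23.7 and 49.7 CPM in the beads of the 3 h leptin lysates m24, f2 and f4 and at 9.39, 8.43 and 10.2 CPM in those of the 10 h leptin lysates 1, 2 and 3. The vehicle beads held 7.21 to 10.1 CPM at 3 h and 6.60 CPM at 10 h. All 3 h leptin values lay above all 10 h leptin values. The 10 h leptin values were near those of 3 h vehicle mice and above the 10 h vehicle library. The log2 fold change was -1.98 (SE 0.22, adjusted p = 0.00443 with edgeR), and it was -1.98 (adjusted p = 0.00423) in the leptin libraries alone. The call was lost when 10 h lysate 2 was left out (adjusted p = 0.0832). In the depleted lysates Arid5a was at 18.3, 20.4 and 17.7 CPM at 3 h and 14.9, 14.1 and 16.2 CPM at 10 h, which also did not overlap, with a log2 fold change of only -0.32 (SE 0.08, adjusted p = 0.0869).

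Etv6 and Fosl2 were also lower at 10 h with leptin, and Fosl2, unlike Etv6, was lower at 10 h in vehicle beads as well. Etv6 was at 40.9, 26.9 and 41.6 CPM in the 3 h beads and 18.7, 15.4 and 18.7 CPM in the 10 h beads, against 12.5 to 15.3 CPM in 3 h vehicle beads and 14.8 CPM in the 10 h vehicle library. Its log2 fold change was -1.05 (SE 0.16, adjusted p = 0.116), and with the leptin libraries alone it fell (adjusted p = 0.0194). Etv6 overlaps the gene Gm17089 on the opposite strand, and since the library kit does not mark strand their reads cannot be told apart. Fosl2 (chr5:32135801-32157842, plus strand), an AP-1 subunit of the Fos family, was at 33.8, 26.4 and 38.6 CPM in the 3 h beads and 11.4, 10.9 and 12.1 CPM in the 10 h beads. The 3 h vehicle beads held 13.1 to 23.1 CPM and the 10 h vehicle library 9.15 CPM, so all 10 h libraries, vehicle included, were below all 3 h libraries. The log2 fold change of Fosl2 was -1.52 (SE 0.27, adjusted p = 0.178), and with the leptin libraries alone it fell (adjusted p = 0.000618). In the depleted lysates the differences of Etv6 and Fosl2 were -0.17 and -0.38 on the log2 scale.

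Atf3 and Socs3 stayed above vehicle mice at 10 h while lying below their 3 h level on average. Atf3, a stress-inducible partner of Jun proteins, was at 23.6, 20.3 and 42.9 CPM in the 3 h beads and 9.78, 11.9 and 13.8 CPM in the 10 h beads, with 4.53 to 7.94 CPM in 3 h vehicle beads and 2.60 CPM in the 10 h vehicle library. The groups did not overlap, and the log2 fold change was -1.29 (SE 0.35, adjusted p = 0.204; 0.0473 in the leptin libraries alone). Socs3 was at 45.1, 24.1 and 54.1 CPM in the 3 h beads and 17.7, 15 and 28.3 CPM in the 10 h beads, against 8.36 to 10.54 CPM in 3 h vehicle beads and 7.43 CPM in the 10 h vehicle library. The 3 h and 10 h leptin values overlapped, because the 3 h lysate f2 was below the 10 h lysate 3. Its log2 fold change in beads was -1.01 (SE 0.26, adjusted p = 0.204). In the depleted lysates Socs3 was at 5.505, 5.27 and 7.41 CPM at 3 h and 3.35, 2.74 and 3.36 CPM at 10 h, without overlap, and fell by 0.94 on the log2 scale (SE 0.19, adjusted p = 0.0432), a call that was lost whichever of the 6 lysates was left out. The difference between the bead and the depleted change of Socs3 was -0.04 (SE 0.23, adjusted p = 0.941).

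Timp1 and Serpina3n, secreted protease inhibitors, had their highest values at 10 h. Timp1 was at 3.79, 2.42 and 4.38 CPM in the 3 h beads and 6.51, 7.35 and 11.04 CPM in the 10 h beads, against 1.59 to 2.40 CPM in 3 h vehicle beads and 2.19 CPM in the 10 h vehicle library. Every 10 h leptin library was above every other wild-type bead library. The log2 fold change was 1.23 (SE 0.29, adjusted p = 0.194), and Timp1 rose in the leptin libraries alone (adjusted p = 0.0406). It was barely counted in depleted lysates, at 0.0869 to 0.433 CPM at 3 h and 0.216 to 0.615 CPM at 10 h. Serpina3n was at 224, 139.8 and 206 CPM in the 3 h beads and 255, 328 and 365 CPM in the 10 h beads, which did not overlap. The 3 h vehicle beads ran from 156 to 300.5 CPM with lysate m3 at the top, so the 10 h leptin values lay partly within the vehicle range. The log2 fold change of Serpina3n was 0.73 (SE 0.25, adjusted p = 0.221). Serpina3i, a paralogue with similar sequence whose reads may be shared with other Serpina3 genes, was at 6.67, 3.18 and 6.33 CPM at 3 h and 6.01, 5.36 and 4.86 CPM at 10 h, with a log2 fold change of 0.01 whose sign changed with the scaling and the lysates used. Irf9, an interferon regulatory factor, was at 33.1, 22.7 and 32.04 CPM at 3 h and 40.1, 35.2 and 37.3 CPM at 10 h, without overlap, and its log2 fold change was 0.36 (SE 0.18, adjusted p = 0.328). Stat3 itself was at 238, 210.3 and 253 CPM and 238, 247 and 302 CPM, with a log2 fold change of 0.17 (SE 0.12).

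**Figure D1:**
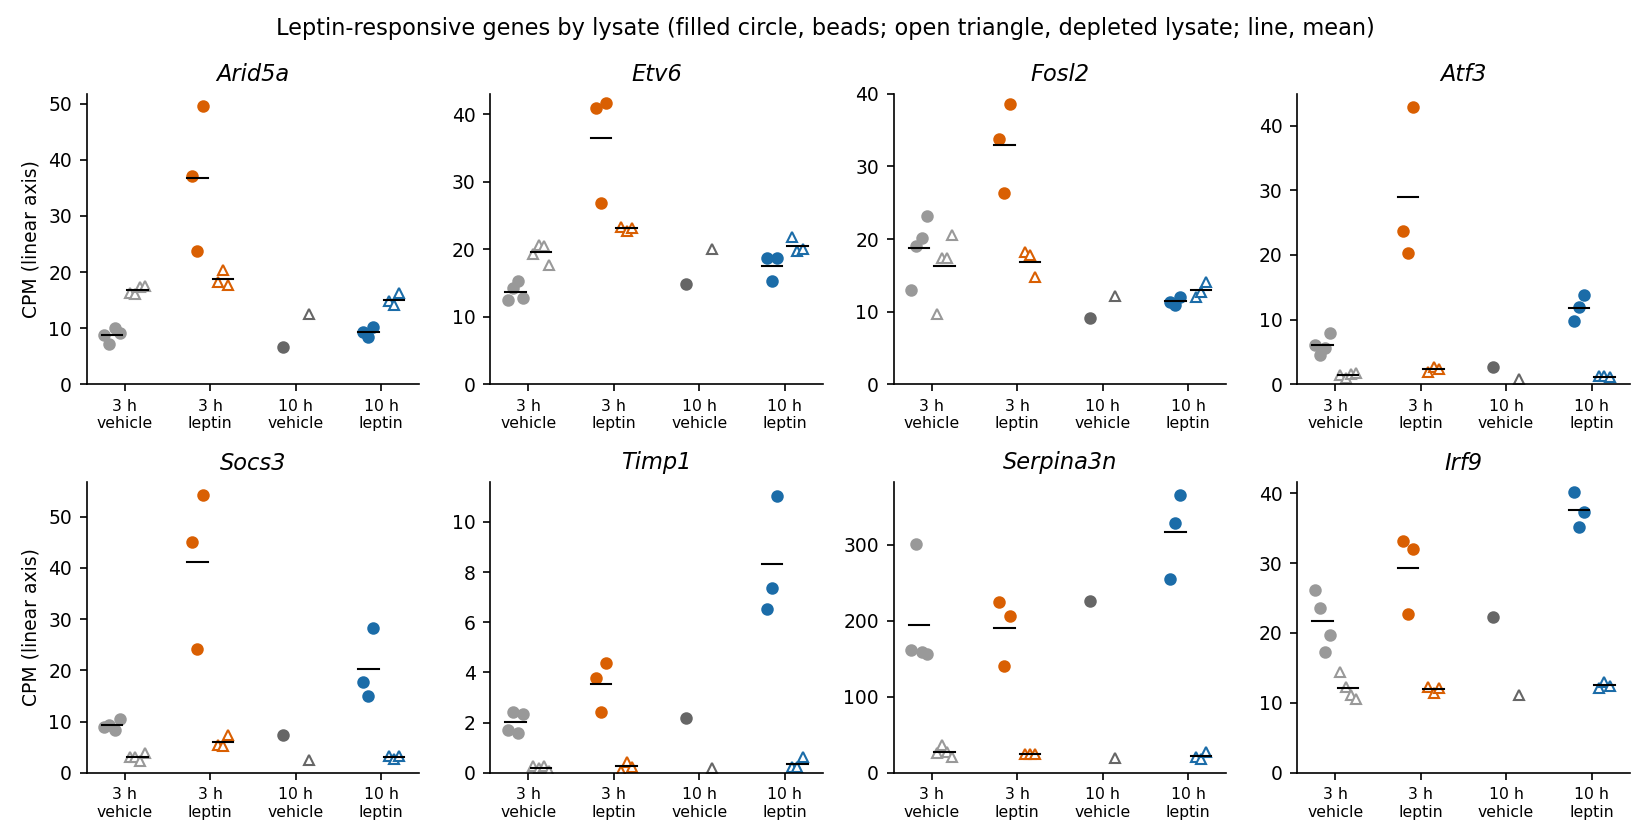
CPM (linear axis from 0) of 8 genes in each wild-type lysate, by time and agent, with filled circles for beads, open triangles for depleted lysate and lines at the group means. Of these, 4 (Arid5a, Etv6, Atf3 and Socs3) were called for leptin against vehicle in 3 h beads. In beads, Arid5a at 10 h leptin (8.43 to 10.2 CPM) sits near the 3 h vehicle values and above the 10 h vehicle library. Timp1 at 10 h leptin (6.51 to 11.04 CPM) sits above every other group.

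The leptin effect at each time, against vehicle mice of the same run, places these values, although it uses the same leptin libraries. At 3 h edgeR called 4 of 18212 genes in beads (0.022%), and all were higher with leptin: Socs3 (log2 fold change 2.14, adjusted p = 0.00355), Arid5a (2.06, 0.000773), Etv6 (1.41, 0.00136) and Atf3 (2.27, 0.0453). At 10 h, with 1 vehicle library, 0 were called (0%). The 10 h leptin differences were 1.45 for Socs3, 2.18 for Atf3, 1.92 for Timp1, 0.50 for Arid5a and 0.25 for Etv6 on the log2 scale. The change of the leptin effect from 3 h to 10 h was -1.56 for Arid5a (SE 0.36, adjusted p = 0.993) and -1.16 for Etv6 (SE 0.27, adjusted p = 0.993). That test called 0 of 18212 genes with edgeR and 0 with limma voom, and 547 (3%) had an unadjusted p under 0.05 where 911 would be expected with no difference, while DESeq2 called 1, Caln1. With 1 vehicle library at 10 h, the change of the leptin effect thus passed the threshold for neither gene.

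Of the 23 genes of the JAK-STAT and feedback list, 1 was higher and 3 were lower without overlap between the groups in beads. Over all genes tested in beads, 11.7% were higher and 13.7% lower in that sense, so this list stood near the background, and its median log2 fold change was -0.09 against 0.01 over all genes. Socs1, another feedback inhibitor, was at 6.41, 5.35 and 7.36 CPM at 3 h and 2.77, 2.90 and 6.51 CPM at 10 h. Cish, of the same family, was at 12.5, 8.76 and 13.5 CPM and 7.15, 8.95 and 9.31 CPM, and Jak2, the receptor's kinase, at 61.99, 50.9 and 64.3 CPM and 47.3, 50.6 and 40.1 CPM. Neither passed the test, with log2 fold changes of -0.46 and -0.36. Of the acute phase and STAT3 target list, 19 of 25 members were counted well enough to test, and 4 were higher and 5 lower without overlap, with a median of -0.17. In the leptin libraries alone, Arid5a and Etv6 fell and Timp1 rose. Zc3h12a, an RNase that degrades inflammatory transcripts, was at 1.23, 1.14 and 1.57 CPM at 3 h and 0.668, 0.692 and 0.478 CPM at 10 h (log2 fold change -1.09, adjusted p = 0.204). This list thus held members at both ends of the time difference.

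Immediate early genes, which cells switch on within minutes of a stimulus, lay lower at 10 h as a list, in beads and in depleted lysates alike. In beads, where 11.7% of all genes were higher and 13.7% lower without overlap, 0 of 30 were higher and 12 lower (median log2 fold change -0.29). In the depleted lysates, where 13.4% of all genes were higher and 14.4% lower without overlap, 0 of 30 were higher and 14 lower (median -0.22). The median in vehicle beads, 1 library of 10 h against 4 of 3 h, was -0.66, so the list was lower there without leptin. Gadd45g, a stress-inducible regulator of DNA demethylation, was at 73.5, 52.6 and 98.2 CPM in the 3 h beads and 33.3, 31.7 and 47.5 CPM in the 10 h beads (log2 fold change -0.996, SE 0.23, adjusted p = 0.189). Jun, an AP-1 subunit, was at 151, 111 and 166 CPM and 73.2, 77.6 and 116 CPM in beads and 68.8, 69.7 and 67.7 CPM and 54.01, 53.6 and 56.2 CPM in depleted lysates, and fell in the depleted lysates by 0.33 on the log2 scale (SE 0.06, adjusted p = 0.0403). Jun values of 3 h vehicle depleted lysates were 55.9 to 58.7 CPM, close to the 10 h leptin values. With the bead libraries of leptin mice alone, Fosl2, Atf3 and Fosb fell and no other member was called. Fosb, a further Fos family member, was at 12.6, 12.5 and 12.2 CPM at 3 h and 4.12, 4.76 and 7.88 CPM at 10 h, and it had 7.80 to 16.6 CPM in 3 h vehicle beads and 4.54 CPM in the 10 h vehicle library. Unlike Atf3 and Arid5a, Fosb at 3 h was thus within the vehicle range.

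Neuropeptides and markers of LepRb neurons were on the whole higher in the 10 h beads, with no member past the threshold in either fit. Of 22 LepRb neuron markers, 11 were higher (50%) and 0 lower without overlap (median log2 fold change 0.35). Of 23 feeding neuropeptides tested 10 were higher (43.5%) and 2 lower (8.7%), with a median of 0.43. Over all genes tested in beads, 11.7% were higher and 13.7% lower. The lists share members, among them Agrp, Npy, Pomc and Gal, and are not independent. Foxb1 of the marker list was not enriched, with a bead level 0.52 to 0.68 times the depleted level at 3 h and 0.53 to 0.81 times at 10 h. Agrp was at 88.6, 56.7 and 107 CPM at 3 h and 116, 135 and 155 CPM at 10 h, without overlap, with a log2 fold change of 0.69 (SE 0.53, adjusted p = 0.52). Npy, made in the same neurons, was at 411, 223 and 447 CPM and 551, 553 and 597 CPM (log2 fold change 0.65, SE 0.44, adjusted p = 0.458). Vehicle beads of 3 h ran from 60.02 to 273 CPM of Agrp, a range wider than the difference between the leptin groups, and the gene overlaps others in the annotation. Pomc, in neurons that leptin activates, was at 741, 750.3 and 609.7 CPM and 787, 876 and 1185 CPM (log2 fold change 0.44, SE 0.20, adjusted p = 0.295). Its depleted value in lysate f2 was far above the rest, 32.6, 505 and 18.4 CPM in m24, f2 and f4 against 24.3, 20.99 and 25.4 CPM at 10 h, in the lysate that also held pituitary RNA. Pituitary markers summed to 1227 CPM in the f2 beads too. How much of their 750.3 CPM of Pomc came with that RNA was not tested. Cartpt, a peptide made with Pomc, was at 759.8, 502 and 473 CPM and 638, 591 and 695 CPM, which overlapped.

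Some peptides of other LepRb neurons were also higher in all 3 lysates of 10 h. Gal (galanin) was at 64.4, 58.1 and 72.2 CPM at 3 h and 81.4, 98.1 and 105 CPM at 10 h (log2 fold change 0.55, SE 0.14, adjusted p = 0.204). Nts (neurotensin), of lateral hypothalamic LepRb neurons, was at 151, 77.6 and 122 CPM and 159, 196 and 174 CPM. Pdyn (prodynorphin) was at 91.5, 75.1 and 77.9 CPM and 97.2, 116 and 121 CPM, and Adcyap1 (the peptide PACAP) at 206, 150.3 and 170.1 CPM and 232, 241 and 240.5 CPM. The leptin groups did not overlap for any of these 4 genes, and their log2 fold changes lay between 0.44 and 0.59, none past the threshold. Summed over the 22 LepRb neuron markers, beads held 2549 to 3472 CPM at 3 h and 3634 to 4448 CPM at 10 h. Vehicle beads held 2769 to 4199 CPM at 3 h and 3421 CPM at 10 h, a span that holds part of both leptin ranges. With the glial marker mean of each library as a covariate, the median of the list was 0.06 and that of the neuropeptides 0.19.

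Markers of glia and vessels were lower in the 10 h beads. The median log2 fold change was -0.87 over 12 astrocyte markers, -0.65 over 12 oligodendrocyte markers, -1.23 over 12 endothelial and mural markers and -0.50 over 12 microglial markers. Without overlap, 0 were higher and 10 lower (83.3%) in each of the first 3 lists, and 1 was higher (8.33%) and 2 lower (16.7%) among microglial markers. Over all genes tested in beads, 11.7% were higher and 13.7% lower, so the microglial counts stood near the background. In the depleted lysates the 4 medians were -0.00, -0.06, -0.12 and 0.24, so the depleted lysates did not show the lower medians of the beads. A bead library does not separate the number of cells of a type, the RNA per cell and the share of RNA that reaches the beads. Which of them differed was not tested. Astrocyte markers summed to 819 to 1219 CPM in the 3 h beads and 735 to 827 CPM in the 10 h beads, which touched, and oligodendrocyte markers to 1499 to 2148 and 1021 to 1167 CPM. Endothelial and mural markers summed to 55.01 to 76.1 and 21.1 to 32.8 CPM, and microglial markers to 28.9 to 54.2 and 24.6 to 35.1 CPM. No marker of these 4 lists was at 0 in all 10 h beads. With the glial marker mean as a covariate, which is built from the astrocyte, oligodendrocyte and microglial lists, the medians of those lists were -0.10, -0.23 and 0.31, and that of vessel markers was -0.61. The part of this difference in the results for neuronal genes was not tested. The medians given with that covariate cannot separate it from time, since the covariate did not overlap between the leptin groups.

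Single genes of glia and vessels show its size. With the leptin libraries alone, the markers that fell included Ugt8a, Gjc3, Mobp and Mbp of oligodendrocytes, Fgfr3 of astrocytes, and Flt1, Vtn, Tek and Rgs5 of endothelial and mural cells. Fgfr3, a growth factor receptor of astrocytes, was at 19.3, 41.4 and 28.1 CPM and 9.08, 12.1 and 13.8 CPM. Flt1, a VEGF receptor of vessels, was at 9.10, 13.1 and 9.41 CPM and 3.004, 4.24 and 5.04 CPM, and its vehicle libraries ranged over 7.57 to 36.6 CPM at 3 h against 4.80 CPM at 10 h. The median of vessel markers in vehicle beads, -1.88, was below 0 too, whereas that of oligodendrocyte markers was 0.10.

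**Figure D2:**
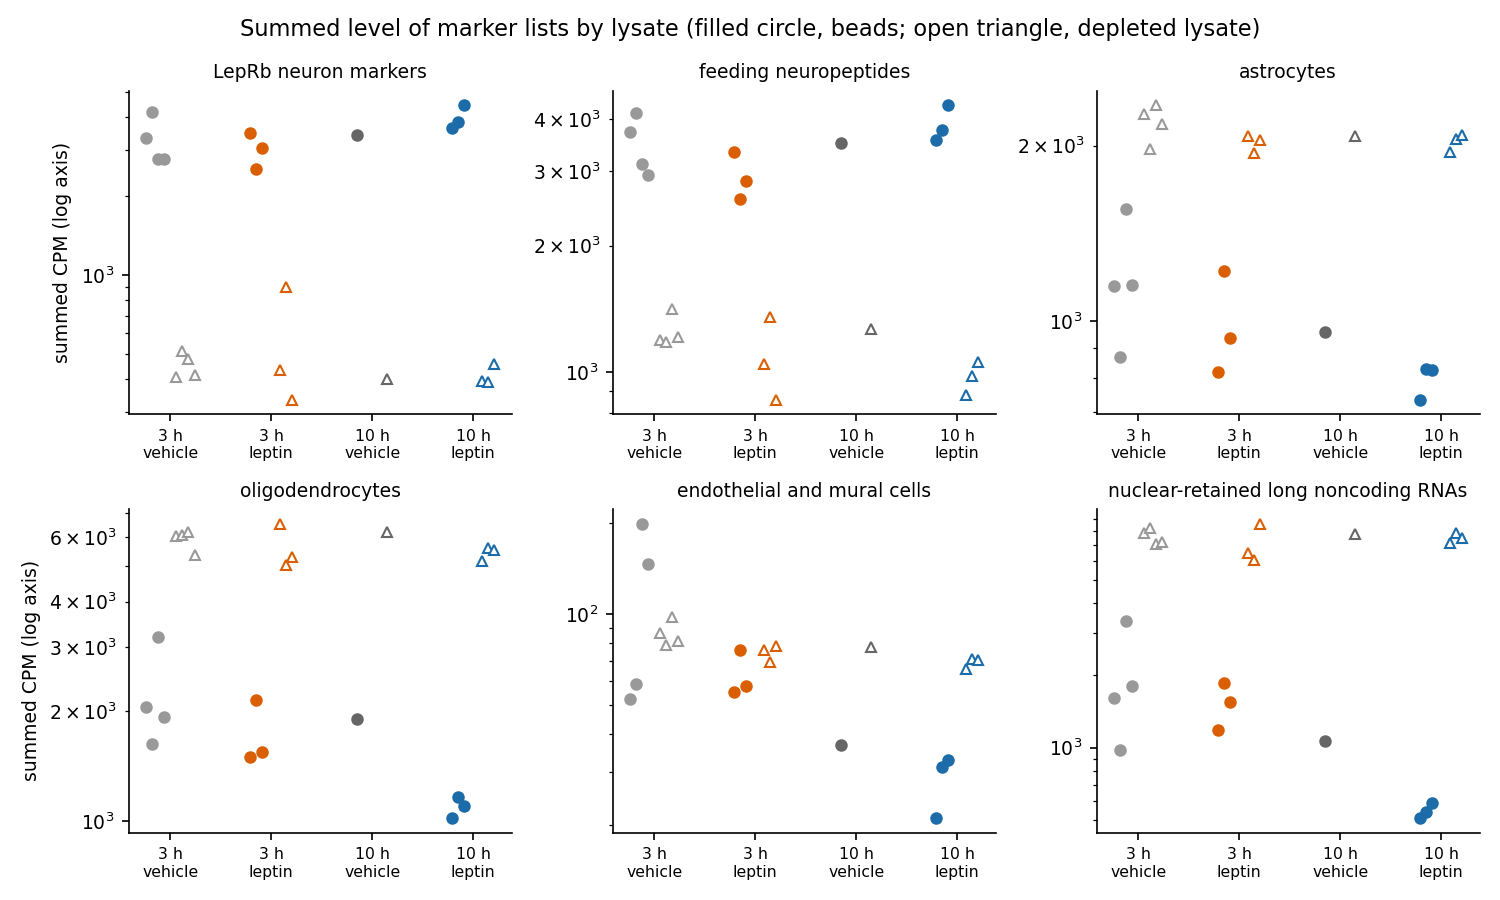
Summed CPM (log axis) of 6 marker lists in each wild-type lysate, by time and agent, with filled circles for beads and open triangles for depleted lysate. In beads the 10 h leptin lysates are the lowest for endothelial and mural markers (21.1 to 32.8 CPM) and for nuclear noncoding RNAs (509 to 588 CPM), and the depleted lysates of the leptin groups lie side by side for these lists.

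Long noncoding RNAs that stay in the nucleus, and are not translated, had the lowest bead median of the 17 lists plotted. All 8 had a lower mean in the 10 h beads, 7 of them (87.5%) without overlap, against 13.7% of all genes. The member that overlapped was Xist, with 2, 3775 and 2265 raw counts in the 3 h beads of m24, f2 and f4. Its level followed the sex of the lysate, so its difference cannot be told apart from sex. The median log2 fold change was -1.96 in beads and 0.06 in depleted lysates. With the glial marker mean as a covariate the bead median was -0.78, with 2 of 8 members above 0. Malat1 (chr19:5795690-5802672, minus strand), of nuclear speckles, was at 49.5, 48.5 and 59.5 CPM in the 3 h beads and 8.99, 13.8 and 8.83 CPM in the 10 h beads. In the depleted lysates it was at 118, 109 and 167 CPM and 136, 143 and 101 CPM, which overlapped. The log2 fold change in beads was -2.32 (SE 0.49, adjusted p = 0.189), and Malat1 fell in the leptin libraries alone (adjusted p = 7.11e-05). Neat1, the scaffold of paraspeckles, was at 28.6, 37.7 and 29.4 CPM and 5.63, 7.22 and 7.99 CPM (log2 fold change -2.21, SE 0.44; adjusted p = 7.11e-05 in the leptin libraries alone). Meg3, an imprinted noncoding RNA, was at 549.9, 903 and 759 CPM and 182, 195 and 222 CPM, and its log2 fold change was -1.89 (SE 0.50; adjusted p = 0.000226 in the leptin libraries alone). Miat and Mirg fell in the same fit (log2 fold changes -1.45 and -2.04), as did Snhg11. Vehicle beads held 36.6 to 88.96 CPM of Malat1 at 3 h and 23.03 CPM at 10 h, so the 10 h vehicle library also lay below the 3 h range, and above all 3 leptin libraries of 10 h. Malat1, Meg3 and Miat overlap antisense genes that the counts cannot separate.

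**Figure D3:**
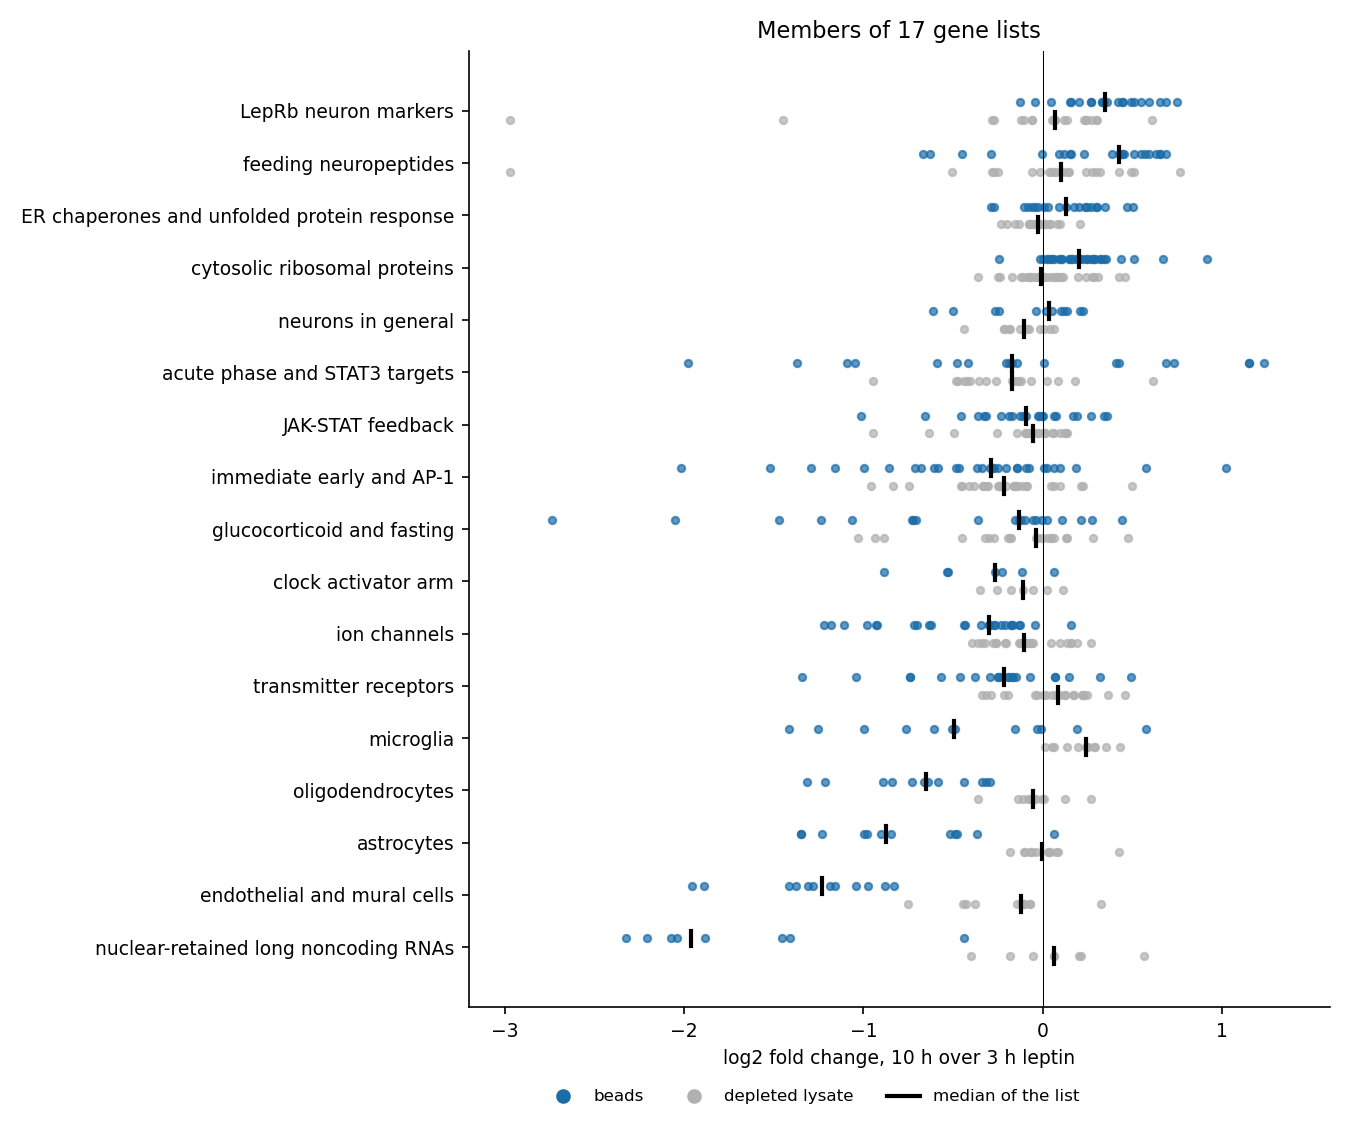
Log2 fold change, 10 h over 3 h leptin, of every tested member of 17 gene lists in beads (blue) and depleted lysate (grey), with black bars at the medians. In beads the medians run from 0.43 for feeding neuropeptides to -1.96 for nuclear noncoding RNAs, and in depleted lysate they stay between -0.22 and 0.24.

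Among genes of the glucocorticoid and fasting response, Zbtb16 was lower at 10 h in both fractions and Hif3a mainly in beads. Of 21 tested, 2 were higher (9.52%) and 9 lower (42.9%) without overlap in beads, against 11.7% and 13.7% over all genes. In depleted lysates 1 was higher (4.76%) and 7 lower (33.3%), against 13.4% and 14.4% over all genes. Zbtb16 (chr9:48654297-48836222, minus strand), a transcriptional repressor induced by glucocorticoids, was at 12.7, 18.5 and 16.3 CPM in the 3 h beads and 5.48, 7.87 and 6.92 CPM in the 10 h beads. In depleted lysates it was at 24.4, 26.1 and 24.95 CPM at 3 h and 12.5, 13.4 and 13.4 CPM at 10 h. The groups did not overlap in either fraction. Zbtb16 fell in the depleted lysates (log2 fold change -0.94, SE 0.15, adjusted p = 0.0346) and, with the leptin libraries alone, in beads (log2 fold change -1.24, adjusted p = 0.0125). Hif3a (chr7:17031507-17062427, minus strand), a hypoxia-inducible factor subunit, was at 4.58, 5.70 and 3.32 CPM and 1.14, 1.25 and 0.883 CPM in beads but only 10.9, 13.5 and 11 CPM and 9.61, 9.53 and 9.09 CPM in depleted lysates, and it fell in the bead libraries of leptin mice alone (log2 fold change -2.05, adjusted p = 0.00491). Mt2, a metallothionein, Cdkn1a, a cell cycle inhibitor, and Mertk, a phagocytic receptor of glia, fell in the same fit. In the 10 h vehicle beads Zbtb16 was at 8.10 CPM and Hif3a at 1.73 CPM, against 9.79 to 19.2 and 3.07 to 9.47 CPM at 3 h, so the vehicle lysate of 10 h was also below all vehicle lysates of 3 h for both. The median of the list in vehicle beads was -0.62.

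Clock genes cycle over the day, and none was called in beads in the fit of all bead libraries. Per1, Per2, Nr1d1 and Arntl had log2 fold changes of -0.00, -0.14, -0.16 and 0.06 in beads, and the groups overlapped for each of the 4. Dbp, a clock output factor, was at 44.6, 51.1 and 48.8 CPM and 60.1, 52.7 and 114 CPM in beads, and in depleted lysates at 62.8, 71.96 and 77.1 CPM and 91.7, 91.3 and 87.5 CPM, where it rose (log2 fold change 0.35, SE 0.07, adjusted p = 0.0468). Vip, a peptide of the master clock neurons, rose in depleted lysates from 4.90, 4.59 and 5.05 CPM to 6.87, 9.10 and 8.66 CPM (log2 fold change 0.76, adjusted p = 0.0434). Depleted lysates of 3 h vehicle mice held 75.1 to 86.4 CPM of Dbp and 6.02 to 7.82 CPM of Vip. Of 14 genes of the E-box and D-box arm, 3 were higher (21.4%) and 1 lower (7.14%) without overlap in beads, with a median of -0.03 that was 0.05 without lysate f2. Of 7 genes of the activator arm, 0 were higher and 4 lower (57.1%), against 11.7% and 13.7% over all genes. Npas2, an alternative partner of Arntl, was at 16.8, 18.1 and 18.3 CPM and 10.8, 11.2 and 14.7 CPM, and Rora at 103, 197 and 109 CPM and 79.7, 79.6 and 62.2 CPM.

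Receptor and channel transcripts of neurons were more often lower than higher in the 10 h beads. Of 27 ion channel genes 0 were higher and 12 lower (44.4%) without overlap, with a median log2 fold change of -0.30. Of 22 transmitter receptor genes 2 were higher (9.09%) and 5 lower (22.7%), with a median of -0.21. Over all genes tested in beads, 11.7% were higher and 13.7% lower. Grin2b, an NMDA receptor subunit, was at 68.03, 131 and 75.1 CPM at 3 h and 29.4, 43.7 and 35.4 CPM at 10 h. Kcna1, a potassium channel of axons, was at 15.2, 26.6 and 16.1 CPM and 8.46, 9.82 and 6.55 CPM. In both genes lysate f2 was the highest at 3 h and the groups did not overlap. Grin2b, Grin2a, Kcna1 and Kcnma1 fell in the leptin libraries alone (adjusted p = 0.0406, 0.0291, 0.0294 and 0.0462) and were not called in the fit of all bead libraries. With the glial marker mean as a covariate the median of the channel list was -0.08 and that of the receptor list 0.03.

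Of the 247 genes called in the leptin libraries alone, 23 rose in beads. Gdpd3, a lysophospholipase D, was at 3.10, 1.43 and 1.40 CPM at 3 h and 8.11, 7.91 and 6.51 CPM at 10 h (log2 fold change 1.92, SE 0.31, adjusted p = 0.128; 0.0125 in the leptin libraries alone). Its 3 h vehicle beads held 2.90 to 5.71 CPM, above 2 of the 3 leptin lysates. Hmx2, a homeodomain factor of arcuate neurons, was at 4.80, 5.02 and 4.86 CPM and 8.85, 9.25 and 17.4 CPM and rose in the leptin libraries alone (adjusted p = 0.0294), as did the homeobox genes Six6 (adjusted p = 0.0412) and Irx6 (0.0308). Vehicle beads of 3 h held 6.55 to 12.2 CPM of Hmx2 and 4.35 to 10.1 CPM of Irx6, ranges that overlap the 10 h leptin values. Gdpd3, Irx6 and Gapdh overlap exons of other annotated genes, whose reads may be mixed with theirs. The same holds for other genes named here, among them Irf9, Stat3, Jun, Cish, Dbp, Nr1d1, Arntl, Six6, Grin2b, Rora, Cdkn1a, Mt2 and Wdfy1. Rpl38, a ribosomal protein, was at 25.6, 26.5 and 32.7 CPM and 57.6, 49.5 and 52.8 CPM in beads and 18.7, 16.98 and 18.4 CPM and 26.6, 23.9 and 23.98 CPM in depleted lysates, and rose in both (adjusted p = 0.0107 in beads of leptin mice alone and 0.0346 in the fit of all depleted libraries). Gapdh, a glycolytic enzyme, did likewise, with 41.2, 47.6 and 53.8 CPM and 75.6, 68.8 and 95.3 CPM in beads. The 10 h vehicle library was also above the 3 h vehicle beads for Rpl38 (48.4 against 22.98 to 33.7 CPM) and for Gapdh (62.7 against 40.8 to 49.8 CPM). Of 34 ribosomal protein genes 8 were higher (23.5%) and 1 lower (2.94%) without overlap in beads, against 11.7% and 13.7% over all genes, with a median of 0.20. The median was 0.11 without lysate f2 and -0.06 with the glial marker mean as a covariate, and no member was called in the fit of all bead libraries. Xbp1, a transcription factor of the unfolded protein response, was at 121, 98.3 and 103 CPM and 156, 151 and 149.5 CPM without passing the test (adjusted p = 0.178), and none of 21 genes of its list was called.

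The depleted libraries of the same 6 lysates served as the check of general time and run differences. Of 19115 genes, 101 passed the threshold (0.528%), 26 higher (0.136%) and 75 lower (0.392%) at 10 h, and 931 of 18398 (5.06%) did so in the depleted libraries of leptin mice alone, 310 higher (1.68%) and 621 lower (3.38%). Tmsb10, an actin-binding peptide, fell from 50.5, 56.6 and 47.4 CPM to 29, 24.8 and 25.7 CPM (log2 fold change -0.96, SE 0.12, adjusted p = 0.0184). Wdfy1, an endosomal adaptor, rose from 58.3, 41.3 and 42.4 CPM to 86.5, 86.4 and 80.0 CPM (log2 fold change 0.83, SE 0.12, adjusted p = 0.0223). Both had the same direction without leptin, with 40.1 to 57.7 CPM of Tmsb10 at 3 h and 20.4 CPM at 10 h in vehicle lysates, and 41.1 to 49.5 and 79.5 CPM of Wdfy1. The count of 101 rested on single lysates, since leaving out any 1 of the 6 left 0 to 8 calls (8 without m24, 1 without f2, 0 without f4, and 5, 0 and 1 without 10 h lysates 1, 2 and 3). The depleted calls of Zbtb16, Jun, Socs3, Rpl38, Gapdh, Dbp and Vip were lost in all 6 such fits, and Tmsb10 and Wdfy1 kept theirs in 2 and 1 of them. The count of 931 was 620 without m24 and 456, 109 and 155 without 10 h lysates 1, 2 and 3.

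Bead and depleted changes were compared gene by gene. Of the 247 genes called in beads of leptin mice alone, 33 were among the 931 called in their depleted lysates, 30 of them in the same direction, which is 13.4% of the first list and 3.54% of the second. The median log2 fold change of those 247 genes was -1.04 in beads and -0.06 in depleted lysates, and 162 of the 245 tested in both had the same sign there. The 247 genes were chosen by their change in these same bead libraries, so the larger bead median is partly built in by that choice. Over 17830 genes tested in both, the log2 fold changes had a Pearson r of 0.322 and a Spearman rho of 0.23. The points are genes that share the same 6 lysates and runs and are not independent. Tested directly with the lysate as a block, the change in beads minus the change in depleted lysate passed the threshold for 0 of 19682 genes with edgeR in the fit of all 28 libraries (0%) and 0 with limma voom, while 3067 (15.6%) had an unadjusted p under 0.05 and DESeq2 called 77. Arid5a had the smallest p, with a difference of -1.60 on the log2 scale (SE 0.24, adjusted p = 0.0518). With the 12 leptin libraries alone the same test called 243 of 18917 genes (1.28%), 5 with a more positive change in beads (0.0264%) and 238 with a more negative one (1.26%). They included Arid5a (-1.61, adjusted p = 0.0261), Fosl2 (-1.13, 0.0266), Etv6 (-0.87, 0.0375), Malat1 (-2.31, 5.02e-05) and Hif3a (-1.72, 0.0108), and on the positive side Serpina3n (0.89, 0.0488) and Irx6 (1.5, 0.0463). Of the 247 genes called in beads, 123 (49.8%) were among these 243, and both tests use the same bead counts. The count of 243 was 433 without m24, 156 without f2, 127 without f4 and 9, 22 and 2 without 10 h lysates 1, 2 and 3. With the glial marker mean as a covariate 3 genes were called, Arid5a, Malat1 and Meg3.

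**Figure D4:**
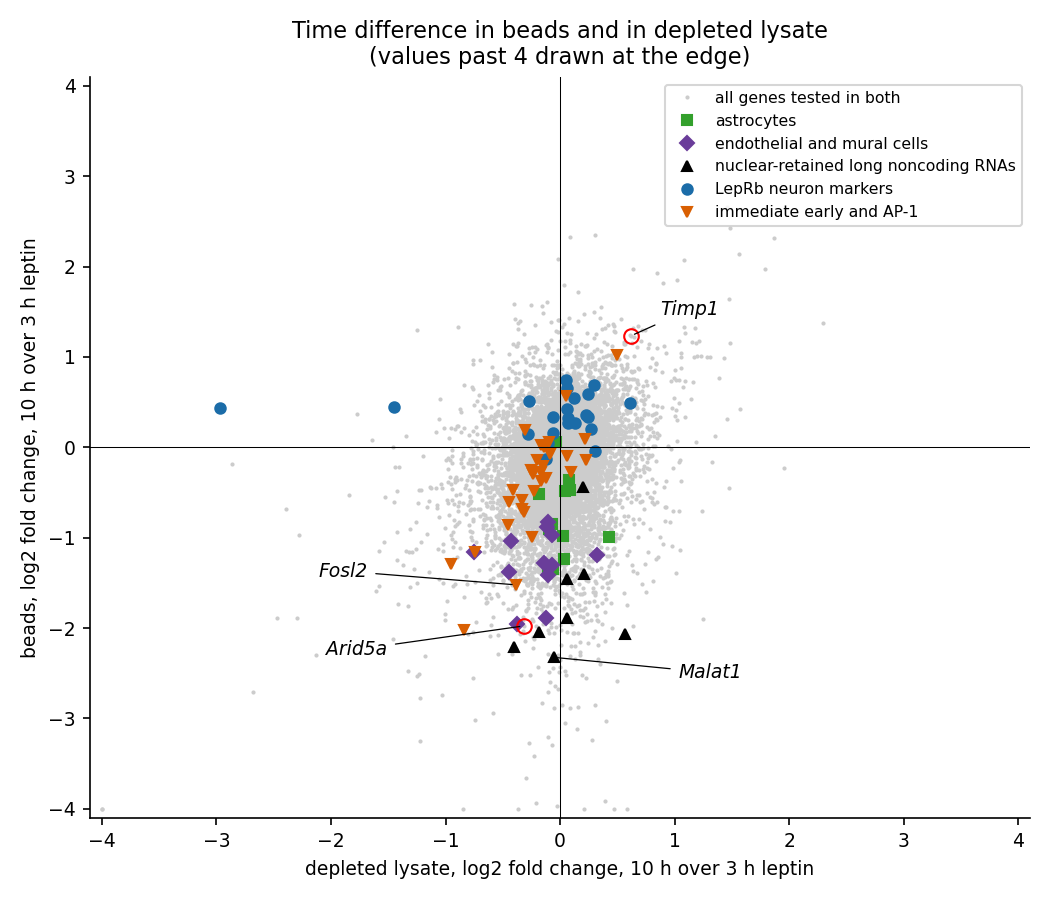
Log2 fold change, 10 h over 3 h leptin, of each gene tested in both fractions (grey dots, 17830 genes), depleted lysate on the horizontal axis and beads on the vertical axis, with 5 gene lists in colour and values past 4 drawn at the edge. Nuclear noncoding RNAs, vessel and astrocyte markers and Arid5a lie far below 0 in beads and near 0 in depleted lysate.

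The vehicle beads gave the same time contrast without leptin, with 1 library at 10 h assumed to vary like the other groups. Of 18212 genes 0 passed the threshold with edgeR (0%) and 0 with limma voom, 1107 had an unadjusted p under 0.05 (6.08%), and DESeq2 called 12. Fosl2 had a log2 fold change of -1.04 there, Malat1 of -1.43, Neat1 of -1.77 and Hif3a of -1.75, against -0.42 for Arid5a, 0.11 for Etv6, -0.32 for Socs3 and 0.13 for Timp1. The 10 h vehicle lysate stood apart in its own way, with 235 CPM of the mitochondrial mt-Co1 in beads against 42.5 to 51.1 CPM in the 10 h leptin beads.

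Lysate f2, which held pituitary RNA, moved the list medians without turning the sign of those given next. Without it the fit of all bead libraries called 2 genes, Arid5a and Etv6, both lower at 10 h. The bead medians without it were 0.26 for LepRb neuron markers, 0.34 for feeding neuropeptides, -0.33 for immediate early genes, -1.55 for nuclear noncoding RNAs, -0.60 for astrocyte, -0.51 for oligodendrocyte, -0.19 for microglial and -1.08 for endothelial and mural markers, and -0.24 for ion channels. Without overlap, 12 of 22 LepRb neuron markers were then higher and 0 lower, and 14 of 29 immediate early genes tested were lower and 0 higher, where 14.6% of all genes were higher and 16.4% lower.

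Transcript length ran along with the time difference in beads. Over 17810 of 17830 genes with an annotated length (99.9%), the log2 fold change had a Spearman rho of -0.33 with the length of the longest transcript in leptin beads, 0.0649 in depleted lysates and -0.0718 in vehicle beads. The median log2 fold change in leptin beads was 0.13, 0.08, 0.01 and -0.19 from the shortest to the longest of 4 equal groups of genes, with bounds at 1.925, 3.115 and 4.59 kb. Genes of the longest group took 30.4%, 33.9% and 30.1% of counts in the 3 h beads and 27.4%, 28.6% and 27.2% in the 10 h beads, while depleted lysates held 36.2% to 36.7% at 3 h and 36.1% to 37.2% at 10 h. The vehicle beads ranged from 28.6% to 35.1% at 3 h and held 30.2% at 10 h. The part of length in the lower values of long noncoding RNAs, channels and glial genes was not tested.

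**Figure D5:**
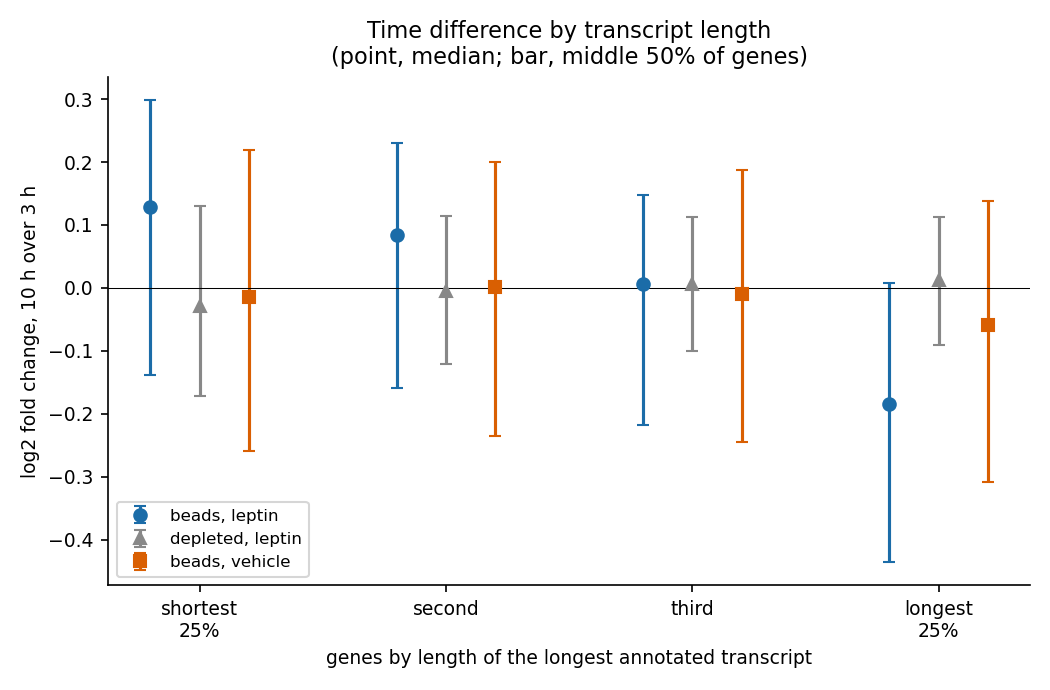
Median log2 fold change, 10 h over 3 h, with bars over the middle 50% of genes, in 4 equal groups by longest annotated transcript, for leptin beads, leptin depleted lysate and vehicle beads. The median in leptin beads steps down from 0.13 in the shortest to -0.19 in the longest group.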

How the data were processed

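RNA was measured by sequencing in bead and depleted libraries of LepRb-eGFP-L10a mouse hypothalamus. Only RNA of integrity number 8 or above was used per the labels' protocols, and it was poly(A)-selected with a kit that does not mark strand and sequenced as single-end reads of 50 cycles, 4 libraries to a lane. STAR 2.7.6a and build GRCm38.p6 are named per the submitters' processing notes, whereas the read counter, its handling of strand and the release of the gene annotation were not found in any label. Values in the table deposited by the authors are raw, unnormalised read counts for 55487 genes and 28 libraries, and a further deposited file gives the run of each library. Groups were taken from the sample labels. Depth bounds only the counting error, since no label mentions molecular identifiers.

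A gene entered a fit if 3 or more of its libraries had 10 or more counts. Counts were scaled by TMM and tested with edgeR 4.0.16 (R 4.3.3), by the two-sided robust quasi-likelihood F test with p-values adjusted across every gene of the fit (Benjamini-Hochberg) and called under 0.05. Adjusted p-values without a named tool come from edgeR. The SE is the log2 fold change over the square root of F. Beads and depleted lysate were compared in a model with a term for each lysate (a block), since both libraries come from the same lysate. DESeq2 1.42.0, limma 3.58.1 (voom), other scalings and filters, a glial covariate (the mean log2 CPM of astrocyte, oligodendrocyte and microglial markers) and leaving out lysates were alternatives. The analysis was tested on simulated counts.

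The comparison and the 32 gene lists were chosen with earlier results of these data known, so list counts and medians describe and are not tested. Genes named were called genes with a mean of at least 2 CPM and no overlap, up to 12 in each direction, up to 5 members of each list by p, and a fixed set of leptin, feeding, clock and sex genes. Because only Arid5a was called in the fit of all bead libraries, the rule was also applied to the leptin libraries alone, after their values were seen. Fosb, Mertk, Mobp, Mbp, Rgs5, Snhg11, Vip and Wdfy1 were named after their values were seen. Gene positions are from GENCODE on GRCm38.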

Additional observations from a re-analysis of the deposited data

Results flagged for a closer look

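In the 3 h vehicle group 4 values stood apart from the other lysates of their group by Dixon's test at 95%, among 36 groups of genes and libraries tested, and chance flags about 1 in 20 groups. In beads of vehicle lysate m3, Serpina3n was at 300.5 CPM and Agrp at 273 CPM, where the other 3 lysates held 156 to 162 CPM and 60.02 to 84.1 CPM. In depleted lysate, Agrp of m3 was at 5.27 CPM (others 2.98 to 3.10 CPM), and Npy of vehicle lysate m1 was at 20.0 CPM (others 23.5 to 23.8 CPM). Lysate m3 also held pituitary RNA, with 53.8 CPM of Gh in beads. The groups of 3 leptin lysates were too small for this test.

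With the 12 leptin libraries alone, the 10 h against 3 h change differed between beads and depleted lysate for 243 genes by the test of the difference itself (edgeR, adjusted p under 0.05). Among the genes named, the bead change minus the depleted change was -1.61 for Arid5a, -0.87 for Etv6, -1.13 for Fosl2 and -2.31 for Malat1 on the log2 scale, and 0.89 for Serpina3n. In the fit of all 28 libraries the same test called 0 genes, with an unadjusted p under 0.05 for 3067.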

How the results depend on the processing

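In the fit of all bead libraries Arid5a kept its direction in every alternative run and its call in all but 1, leaving out 10 h lysate 2 (adjusted p = 0.0832 with edgeR). Counts of calls differed widely between fits. DESeq2 called 273 genes in beads, 644 in depleted lysate, 77 for beads minus depleted, 1 (Caln1) for leptin minus vehicle and 12 in vehicle beads. Without a filter on low counts the 5 tests called 1308, 1115, 1157, 70 and 308 genes. The leptin libraries alone gave 247, 931 and 243 calls in the first 3 tests. Limma voom called 64 genes in depleted lysate and the glial covariate 602. Leaving out 1 lysate at a time gave 0 to 2 calls in beads, 0 to 8 in depleted lysate and 0 to 3 for beads minus depleted, which without lysate f2 were Arid5a, Fosl2 and Etv6. Leaving out 1 lysate gave 0 calls throughout for leptin minus vehicle and for vehicle beads. Among the alternatives chosen after seeing the data, leaving out both lysates with pituitary RNA (f2 and vehicle m3) gave 9 calls in beads, 1 in depleted lysate and 6 for beads minus depleted. In alternatives to the leptin libraries alone, also chosen then, beads gave 388 calls with library totals as the scaling, 1065 with DESeq2, 119 with limma voom, 8 with the glial covariate and 23 to 750 without 1 lysate. Depleted lysate gave 109 to 788 without 1 lysate. There, library totals turned the share of lower calls from 66.7% to 45.5%. Beads minus depleted gave 629 calls with DESeq2, 3 with the glial covariate and 2 to 433 without 1 lysate. The cause of these differences was not tested.

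No pairing of the 10 h lysates (1, 2 and 3) with the 3 h lysates (m24, f2 and f4) was possible. They come from different hypothalami, sequenced in different runs. The lysate pairs each bead library with its depleted library. Without that replicate block the test of beads minus depleted called 4 genes in place of 0, which were Arid5a, Grin1os, D030047H15Rik and 1700071M16Rik.

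The log2 fold changes of 9 genes in beads changed sign. Serpina3i was at -0.027 with library totals, -0.55 with the glial covariate, -0.26 without both lysates with pituitary RNA and -0.26 to 0.20 without 1 lysate. With the glial covariate Agrp was at -0.025, Cartpt at -0.12, Rian at 0.042, Xist at 0.10, Per1 at 0.17 and Per2 at 0.28. Without both lysates with pituitary RNA, Per1 was at 0.14 and Per2 at 0.048. Without 1 lysate, Per1 ran from -0.18 to 0.14, Per2 from -0.24 to 0.047, Arntl from -0.020 to 0.13 and Ddx3y from -0.79 to 8.90. Limma voom gave 0.66 for Xist and 5.22 for Ddx3y. Over named genes and alternatives, 1368 values kept direction and side of the threshold, 172 passed it newly, 74 no longer passed it and 22 changed sign. Depth of at least 23567997 counts leaves genes under 1 CPM, such as Timp1 in depleted lysate, with few counts.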

Other observations

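Further gene groups were those of mitochondria, red blood cells, cholesterol synthesis and the interferon response. The respiratory chain carries electrons in mitochondria. Of its 28 nuclear genes tested, 1 was higher (3.57%) and 15 were lower (53.6%) at 10 h without overlap in depleted lysate (median log2 fold change -0.08). Over all genes there, 13.4% were higher and 14.4% lower. In beads 5 were higher (17.9%) and 1 lower (3.57%), with a median of 0.07, against 11.7% and 13.7% over all genes. None passed the threshold in the fits of all libraries of a fraction. The 7 mitochondrially encoded genes counted well enough to test had a median of 0.20 in depleted lysate, -0.95 in leptin beads and 1.57 in vehicle beads. With the glial marker mean as a covariate the median in leptin beads was 0.10, with 6 of 7 above 0.

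Erythrocyte transcripts were low in both fractions at 10 h, with medians of -0.68 in beads and -0.50 in depleted lysate over 5 genes, none past the threshold. Of 22 genes of cholesterol synthesis, 3 were higher (13.6%) and 0 lower without overlap in beads, where 11.7% of all genes were higher and 13.7% lower. In depleted lysate 4 were higher (18.2%) and 0 lower, against 13.4% and 14.4% over all genes, and none was called. Of 27 interferon-stimulated and antigen presentation genes tested, 4 were higher (14.8%) and 3 lower (11.1%) in beads (median 0.21), near the shares of all genes. Ifi27, an interferon-induced mitochondrial protein, was at 23, 21.8 and 23.5 CPM in the 3 h beads and 31.4, 28.02 and 32.5 CPM in the 10 h beads (log2 fold change 0.43, SE 0.11, edgeR adjusted p = 0.204). Sspo, the giant protein of the subcommissural organ, was at 3.19, 4.82 and 3.97 CPM in the 3 h beads and 0.501, 0.346 and 0.699 CPM in the 10 h beads.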
